A study of Homo sapiens with 56 samples.

Results

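The genes described here are 34 genes of sterol and fatty acid metabolism, chosen by name and found under those symbols among the 21596 rows of the deposited table. By role, 18 were enzymes of sterol synthesis (HMGCS1, ACAT2, MVK, PMVK, MVD, IDI1, FDPS, FDFT1, SQLE, LSS, CYP51A1, TM7SF2, MSMO1, NSDHL, HSD17B7, EBP, SC5D and DHCR7). Sterol sensing and carriage had 4 genes (INSIG1, SREBF1, SREBF2 and STARD4). The fatty acid genes were 9 (ACLY, ACSS2, ACACA, FASN, SCD, ELOVL6, FADS1, FADS2 and LPIN1), though LPIN1 is not an enzyme of fatty acid synthesis. The last 3, MYLIP, ABCA1 and ABCG1, are among the targets of the liver X receptors (LXR). The study measured RNA by poly-A sequencing in 56 libraries of 4 mantle cell lymphoma cell lines, a B-cell lymphoma, and its title asks whether blocking BIRC5 and MCL-1 can overcome drug resistance. JEKO-1 and MINO-P had 15 libraries each, and Z138 and MINO-VR 13 each. The labels do not say what P, VR, CLF, BTZ or IBR stand for, and give no dose or time. The design text names a PI and a BTKi as partner drugs.

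The comparisons turn on 5 libraries labelled CON, taken as untreated, against 6 labelled CLF, and on 11 labelled IBR against 8 labelled IBR_CLF. CON held 2 libraries of Z138 and 1 of each other line, and CLF held 2 each of JEKO-1 and Z138 and 1 of each MINO line. IBR held 2 libraries of Z138 and 3 of each other line, and IBR_CLF held 2 of each line. BTZ (6 libraries), BTZ_CLF (4), YM155 (4) and S63845 (6) were also compared. The other libraries, 2 each of IBR_YM155 and BTZ_YM155 and 1 each of IBR_S63845 and BTZ_S63845, entered only the fits over all 56 libraries and the levels by line. YM155 was developed as a suppressor of BIRC5 (survivin), and S63845 inhibits the MCL-1 protein. Nothing in the labels says that libraries of 1 line and treatment came from separate cultures, so p-values measure only the spread between these libraries, which may be technical.

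Cells hold their sterol supply steady by feedback on transcription. When sterol in the endoplasmic reticulum falls, INSIG proteins let go of the escort protein SCAP. SCAP then carries the membrane-bound factors SREBP1 and SREBP2 (genes SREBF1 and SREBF2) off to be cleaved. The cleaved forms switch on the genes for making cholesterol and unsaturated fatty acids. When sterol derivatives accumulate, LXR switch on exporters such as ABCA1 and ABCG1, together with MYLIP, a ubiquitin ligase that removes lipoprotein receptors. SREBP sites often lie beside CCAAT boxes, which bind the factor NF-Y.

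Promoter letters are shown because most of the genes shared a direction between CLF and CON. RefSeq windows of 250 bases before to 50 after each start (GRCh38.p14) matched 29 of the 34 genes by symbol. Both strands were searched for TCACNCCAC, the letters of a classical sterol response element, and for CCAAT, and a gene counted once over all its windows. The first motif lay in the windows of 1 of 29 genes, SREBF2, against 1.39% of all 27305 genes. CCAAT lay in 22 of 29 (75.9%), against 39.7% of all genes, and in 13 of the 15 sterol enzymes that had a window. In the stretches below, capitals mark the matched letters, 5' to 3' on the strand of the gene. The first is from chr22:41832952-41833023 (+), before the start of SREBF2, where the response element letters begin 133 bases and ATTGG, the reverse complement of CCAAT, begins 106 bases before the start. The second is from chr4:165327464-165327659 (+), before the start of MSMO1, and holds 4 CCAAT matches. No matches overlapped within either stretch. A match is a description of letters and shows no binding.
SREBF2: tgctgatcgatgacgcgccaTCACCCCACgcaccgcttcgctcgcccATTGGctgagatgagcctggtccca
MSMO1: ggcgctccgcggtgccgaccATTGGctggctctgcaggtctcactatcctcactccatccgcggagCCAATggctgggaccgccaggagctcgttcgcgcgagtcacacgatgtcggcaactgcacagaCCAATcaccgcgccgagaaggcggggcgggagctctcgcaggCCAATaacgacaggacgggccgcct

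The libraries differed in make-up before any gene was compared. Depth, recovered from the spacing of low values, ran from 5.52 to 21.6 M reads (median 16.0), and the share of mitochondrially encoded RNA from 1.91% to 80.5% (median 6.70%). Levels are therefore given in nuclear CPM: the depth-scaled read counts (CPM) rescaled after the 15 mitochondrially encoded genes were left out. Genes of the B-cell and mantle cell lymphoma lists (CD79A, CD79B, PAX5, BLNK, CCND1 and SOX11) reached 1 nuclear CPM in 56 of 56 libraries, and the T-cell genes CD3E and CD2 in none. The B-cell gene CD22 reached it in 48 libraries and was listed at 0 in 3, with a median of 0.788 in Z138. Summed over each list of other cell types, T-cell markers were at most 0.743 nuclear CPM (median 0), myeloid markers at most 13.5 (median 0.737), epithelial markers at most 24.9 (median 6.64) and fibroblast markers at most 74.9 (median 7.76), of which the collagen gene COL1A1 had a median of 45.9 in Z138. The fibroblast sum ran from 2.38 to 74.9 in CON, 2.76 to 53.6 in CLF, 0 to 34.2 in IBR and 0 to 48.7 in IBR_CLF. Pairs of libraries in different groups were in places closer than repeats of 1 group: over all genes, the first CLF library of JEKO-1 differed from the JEKO-1 CON library by a root mean square of 0.192 on the log2 scale, against 0.622 for the second CLF library, and in Z138 the second IBR_CLF library differed from the second IBR library by 0.221. Whether these 3 treated libraries carry the right labels was not tested, and an exchange of labels or samples is possible. The fits of CLF against CON and of IBR_CLF against IBR are therefore also given without them. The differences by line of CLF minus CON were not made without the first JEKO-1 CLF library. The test between lines is given without the second Z138 IBR library, and without the second Z138 IBR_CLF library only within a range. Fits were made with limma on log2(nuclear CPM + 1), with cell line as a term, over all genes with at least 1 nuclear CPM in 2 libraries. A gene was called at a Benjamini-Hochberg adjusted p under 0.05 over all genes tested. All 34 genes passed the filter in each fit. Fold changes are on the log2(nuclear CPM + 1) scale, which understates the change of low genes.

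With CLF alone, the sterol enzymes stood higher and the LXR targets lower than in CON, in the same direction in nearly every line, but no gene of the table passed the adjusted threshold in limma. Of 14394 genes tested, 0 were called (0%), and the smallest adjusted p was 1. At an unadjusted p under 0.05 there were 573 genes (3.98%), and 19 of the 34 sterol and fatty acid genes: 16 higher in CLF and 3 lower. The 19 were 11 of 18 sterol enzymes, 2 of 4 sensing and carriage genes, 3 of 9 fatty acid genes and 3 of 3 LXR targets. Ranked by p, 10 of the 34 lay among the first 100 genes of the table and 13 among the first 200. The median difference of the 34 genes was 0.41 on the log2 scale, against -0.01 for all genes tested. Median differences by role were 0.54 for the sterol enzymes, 0.42 for sensing and carriage, 0.27 for the fatty acid genes and -0.61 for the LXR targets. Over all 56 libraries in 1 fit with treatment, line and library series, the count at an unadjusted p under 0.05 was 5 of 34, and without Z138 or without both MINO lines it was 8 or 11. With libraries of a line and treatment averaged it was 27, and 6 genes of the table were called, none of them among the 34. Without the first JEKO-1 CLF library it was 22, the median was 0.47, and 1 gene of the table, not among the 34, was called. In that fit 893 of 14279 genes passed an unadjusted p of 0.05, more than in the main fit. For the other alternatives in this paragraph the share of all genes at that threshold is not given here.

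The direction was mostly shared between lines, but each MINO line had only 1 library against 1. JEKO-1 had 1 CON library, and its 2 CLF libraries had sterol enzyme medians of -0.03 and 0.54 against it. In these bulk libraries a change in the mix of cells and a change of RNA per cell cannot be told apart. CLF minus CON was positive in all 4 lines for 21 of the 34 genes, against 9.18% of all genes tested, and negative in all 4 lines for 4 genes (MYLIP, ABCA1, ABCG1 and PMVK), against 10.1%. The 21 held 16 of the 18 sterol enzymes, the exceptions being PMVK, which was lower in 4 of 4 lines, and TM7SF2, which was positive in 2. MINO-P had 26 of the 34 genes positive, and MINO-VR, JEKO-1 and Z138 had 27 each. The median difference of the sterol enzymes was 0.35 in MINO-P, 0.56 in MINO-VR, 0.24 in JEKO-1 and 0.89 in Z138. In Z138, the 1 line with 2 libraries of each kind, both CLF libraries lay above both CON libraries for 17 of the 34 genes, of which 12 were sterol enzymes, against 14.2% of all genes tested.

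**Figure D1:**
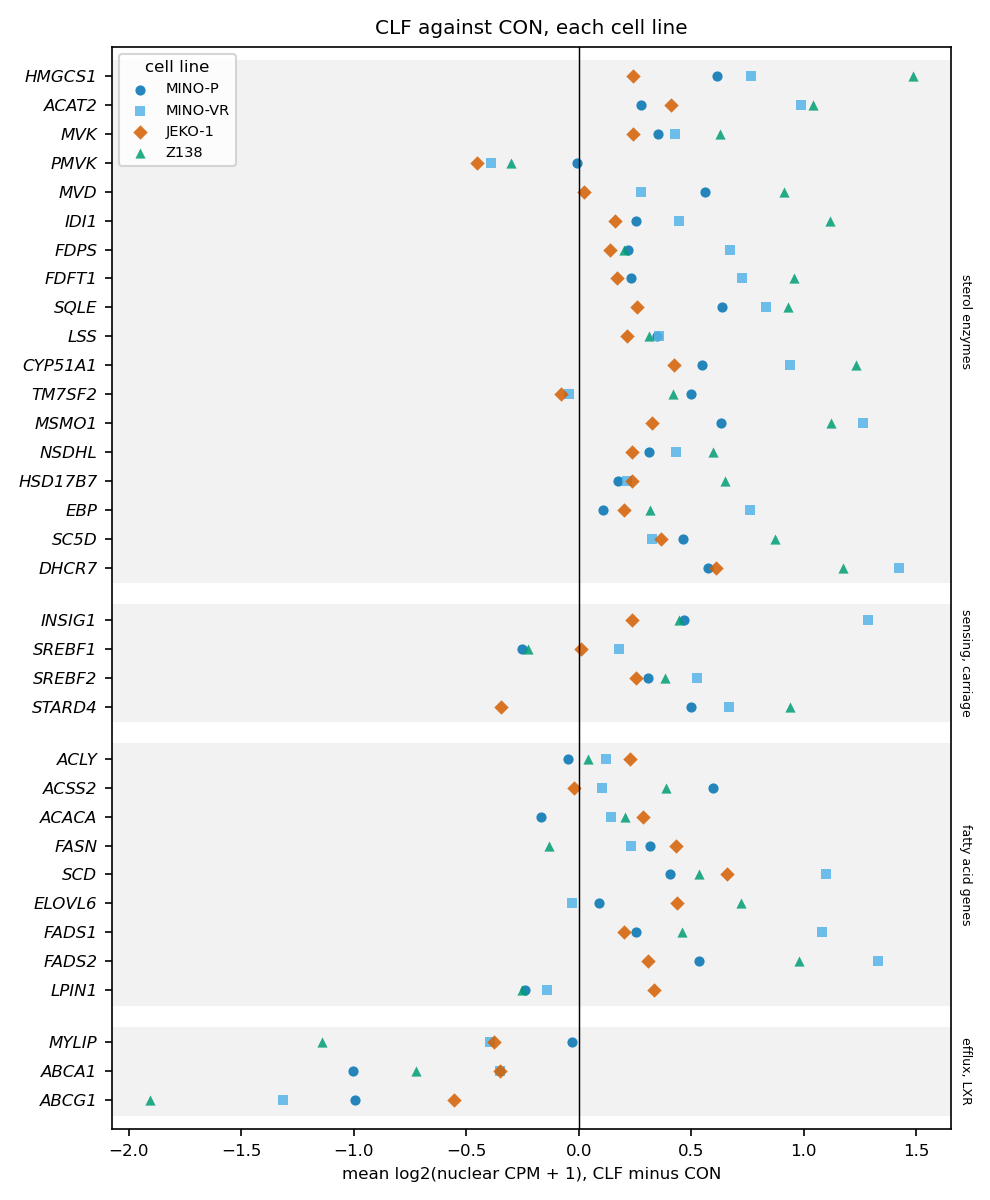
CLF against CON for the 34 genes, by cell line. Each point is the difference of mean log2(nuclear CPM + 1) in 1 line (x axis) for 1 gene (y axis, grouped by role), and the line at 0 marks no difference. Most sterol enzymes lie to the right of 0 in all 4 lines, and MYLIP, ABCA1 and ABCG1 to the left.

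The 8 genes with the smallest unadjusted p over both CLF comparisons are given library by library. HMGCS1 (ENSG00000112972, chr5:43287470-43313513, hg38 as are all gene positions here) makes HMG-CoA at the entry of the mevalonate pathway. In MINO-P, HMGCS1 stood at 50.6 nuclear CPM in the CON library and 78.0 in the CLF library, and in MINO-VR at 48.7 and 83.3. JEKO-1 had 357 in CON against 315 and 564 in CLF, and Z138 had 74.6 and 142 against 262 and 319.8. Every CLF library but the first of JEKO-1 lay above every CON library of its line. The difference was 0.87 (SE 0.25) on the log2 scale, with an unadjusted p of 0.00568 in limma. ACAT2 (ENSG00000120437, chr6:159762045-159779113), the cytosolic thiolase that joins 2 acetyl-CoA units, had CON and CLF levels of 48.5 and 59.0 in MINO-P, 17.6 and 35.9 in MINO-VR, 79.0 against 77.8 and 142 in JEKO-1, and 16.1 and 26.0 against 39.6 and 47.1 in Z138. It differed by 0.73 (SE 0.21), and again only the first JEKO-1 CLF library did not exceed its CON.

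Later steps of the pathway differed alike. CYP51A1 (ENSG00000001630, chr7:92084987-92134804) removes a methyl group from lanosterol. Its CON and CLF levels were 132 and 194 in MINO-P, 108 and 207 in MINO-VR, 103 against 93.5 and 204 in JEKO-1, and 89.9 and 92.0 against 213 and 217 in Z138. The first JEKO-1 CLF library was below the JEKO-1 CON library and all others were above theirs, and the difference was 0.85 (SE 0.21). MSMO1 (ENSG00000052802, chr4:165327667-165343165), a sterol methyl oxidase, had CON and CLF levels of 24.9 and 39.1 in MINO-P, 39.6 and 96.4 in MINO-VR, 129.5 against 120.5 and 219 in JEKO-1, and 35.6 and 40.4 against 92.6 and 75.5 in Z138. Its difference was 0.86 (SE 0.19), its unadjusted p 0.0012 and its rank by p 10 of 14394 genes, the best rank of the 34. SC5D (ENSG00000109929, chr11:121292681-121313411), a sterol desaturase, stood at 22.8 and 31.8 in MINO-P, 26.5 and 33.4 in MINO-VR, 48.2 against 53.1 and 73.3 in JEKO-1, and 13.2 and 17.3 against 27.2 and 30.0 in Z138, and was higher in 6 of 6 CLF libraries. Its difference was 0.57 (SE 0.15). DHCR7 (ENSG00000172893, chr11:71428193-71452869), which catalyses the last step of 1 branch of cholesterol synthesis, stood at 38.3 and 57.5 in MINO-P, 31.1 and 85.1 in MINO-VR, 87.3 against 88.3 and 202 in JEKO-1, and 14.2 and 24.1 against 48.4 and 38.3 in Z138. DHCR7 had the largest positive difference of the 34 genes, 0.97 (SE 0.24).

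The regulator SREBF2 and the exporter ABCG1 differed in opposite directions. SREBF2 (ENSG00000198911, chr22:41833105-41907307), which encodes SREBP2, had CON and CLF levels of 279 and 345 in MINO-P, 210.0 and 303 in MINO-VR, 653 against 631 and 964 in JEKO-1, and 334 and 391 against 449 and 494 in Z138, a difference of 0.36 (SE 0.13). ABCG1 (ENSG00000160179, chr21:42199689-42304390), a sterol exporter, had CON and CLF levels of 52.2 and 25.7 in MINO-P, 84.1 and 33.2 in MINO-VR, 64.3 against 75.2 and 25.0 in JEKO-1, and 16.3 and 14.9 against 3.79 and 3.08 in Z138. It was lower in 5 of 6 CLF libraries, with a difference of -1.29 (SE 0.29) and an unadjusted p of 0.00139. The first JEKO-1 CLF library lay closer to CON than the second did: its sterol enzyme median was -0.03 against CON and its LXR target median 0.14, where the second library had 0.54 and -0.85.

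Outside these 8 genes, the following were chosen after their values were seen. SQLE, an oxygenase that commits squalene to sterols, differed by 0.69 (SE 0.20), FADS2, a fatty acid desaturase, by 0.79 (SE 0.24), and SCD, which makes monounsaturated fatty acids, by 0.65 (SE 0.24). INSIG1, the retention protein of the pathway, differed by 0.56 (SE 0.24), while SREBF1 differed by -0.10 (SE 0.19). ABCA1, an exporter of cholesterol to apolipoproteins, differed by -0.61 (SE 0.26) and MYLIP by -0.60 (SE 0.23). Of the other sterol enzymes, FDFT1, IDI1, NSDHL and MVD also passed an unadjusted p of 0.05, with differences of 0.58, 0.59, 0.42 and 0.51. MVK, FDPS, LSS, TM7SF2, HSD17B7 and EBP lay between 0.22 (TM7SF2) and 0.44 (MVK), and PMVK, a mevalonate pathway kinase, at -0.30. Among the fatty acid genes FADS1 also passed, at 0.47, while ACLY, ACSS2, ACACA, FASN, ELOVL6 and LPIN1 lay between -0.08 (LPIN1) and 0.39 (ELOVL6). STARD4, a sterol carrier, differed by 0.48 (SE 0.24). None of these was called (adjusted p of 1 in limma). Of 26 further genes of sterol and lipid metabolism on a second list, 24 were tested and 0 were called, 17 were positive and 2 passed an unadjusted p of 0.05, with a median of 0.13.

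When CLF was added to IBR, the genes did not differ in 1 direction. Over 4 lines together, 0 of the 34 were called, against 3 of 15752 genes (0.019%), and 7 passed an unadjusted p of 0.05, against 15.3% of all genes tested. The fitted difference was negative for 33 of 34 genes, with a median of -0.34 against 0.0026 for all genes tested. That direction was not kept with JEKO-1 left out, when the median was 0.055 and 21 of 34 were positive. Taken by line, most of the 34 were negative in both MINO lines too, and most were positive in Z138. With Z138 left out, 11 of the 34 were called, and without the first Z138 IBR library 2 were. The share of all genes called in either fit is not given here. Without the second Z138 IBR library, or without the second Z138 IBR_CLF library, 0 were called and the median was -0.33 or -0.43.

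The 4 lines were then tested against each other. In an F-test of the difference in CLF effect between lines, within the 19 IBR and IBR_CLF libraries, 16 of the 34 genes were called, against 507 of 15752 genes (3.22%). They were 9 sterol enzymes (HMGCS1, ACAT2, FDPS, FDFT1, SQLE, CYP51A1, MSMO1, HSD17B7 and DHCR7), INSIG1 and SREBF2, the fatty acid genes FASN, SCD, FADS1 and FADS2, and ABCA1. Of the second list, 1 of 24 genes was called (AACS). For the fits without 1 library that follow, the share of all genes called is not given here. Without the first or the second JEKO-1 IBR_CLF library, 7 or 9 of the 34 were called, and without the second Z138 IBR library 25. No gene of the table was called with JEKO-1 left out, when 9 of the 34 passed an unadjusted p of 0.05. Also none was called when libraries whose names differ only in a final letter were averaged, when 16 did.

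**Figure D2:**
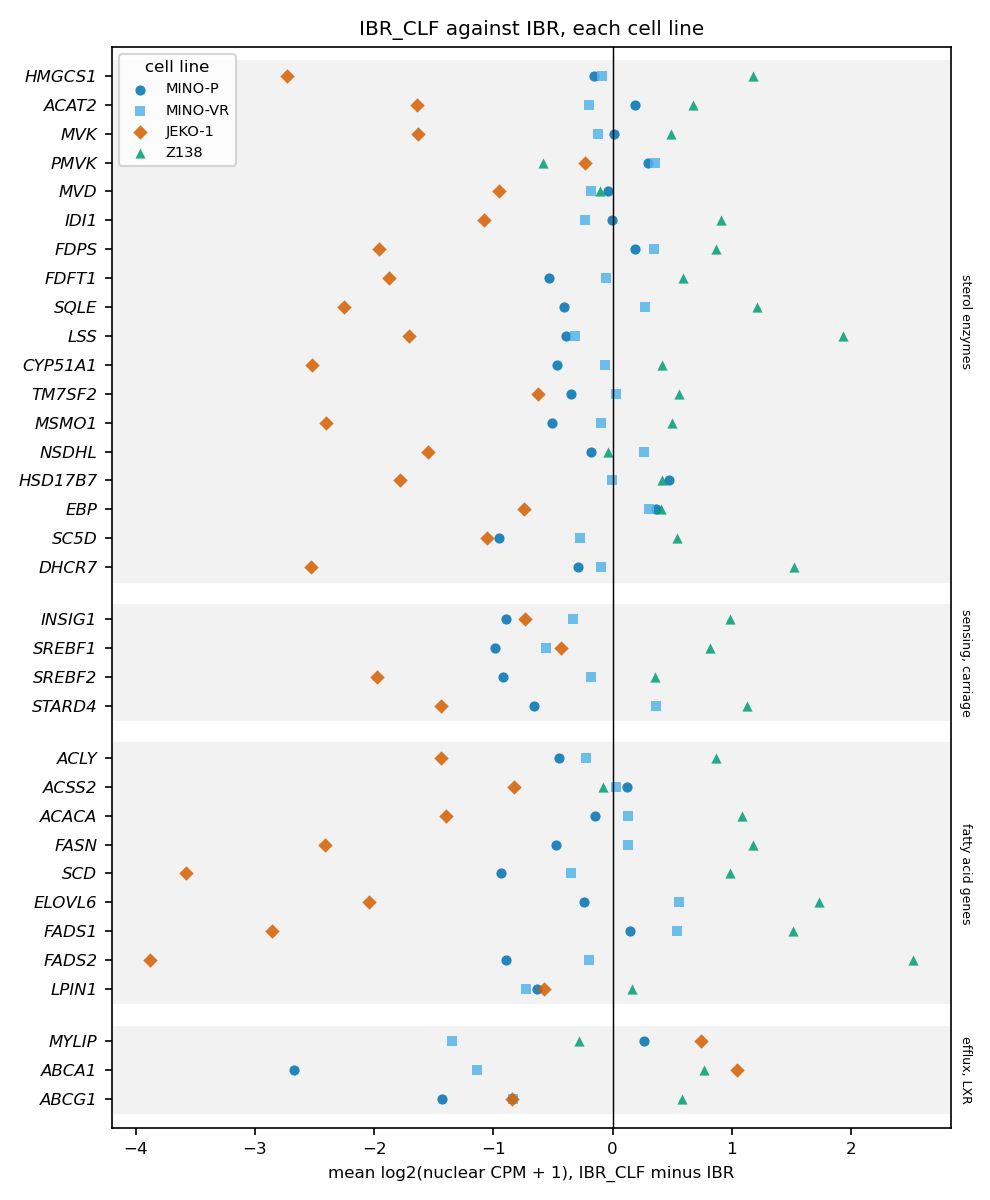
IBR_CLF against IBR for the 34 genes, by cell line. Each point is the difference of mean log2(nuclear CPM + 1) in 1 line (x axis) for 1 gene (y axis, grouped by role), and the line at 0 marks no difference. JEKO-1 lies left of 0 for 32 genes and Z138 right of 0 for 29. MINO-P lies between these 2 lines for 25 genes and MINO-VR for 27, and for ABCA1 both MINO lines lie left of the other 2.

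In JEKO-1, 20 of the 34 genes were called lower in IBR_CLF, against 7.53% of genes called lower, and 0 were called higher. The 20 were 13 of 18 sterol enzymes, SREBF2, and 6 of 9 fatty acid genes. The median difference of the 34 was -1.59, against -0.05 for all genes tested, and by role it was -1.68 for the sterol enzymes and -2.05 for the fatty acid genes. Both IBR_CLF libraries lay below all 3 IBR libraries for 30 of the 34 genes, against 26.1% of all genes tested. ABCA1 and MYLIP were the 2 positive genes, with both IBR_CLF libraries above all IBR libraries, at 1.05 (SE 0.50) and 0.74 (SE 0.34) (adjusted p = 0.183 and 0.17 in limma). The share of all genes with both IBR_CLF libraries above all IBR libraries was not counted. Of the second list, 7 of 24 genes were called, all lower. The tests by line were added after the data were seen.

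HMGCS1 in JEKO-1 stood at 371, 326 and 395 in IBR and 57.9 and 49.9 in IBR_CLF, a difference of -2.73 (SE 0.36) or 6.65-fold lower (adjusted p = 0.000115 in limma). CYP51A1 stood at 258, 261 and 222 in IBR and 41.7 and 42.2 in IBR_CLF, 5.76-fold lower (adjusted p = 1.11e-05). DHCR7 stood at 177, 178 and 187 in IBR and 43.2 and 21.3 in IBR_CLF. All 3 enzymes were lower in both IBR_CLF libraries than in any IBR library, without overlap. MSMO1 stood at 255, 314 and 146 in IBR and 36.7 and 47.9 in IBR_CLF, 5.30-fold lower (adjusted p = 9.3e-05). ACAT2 stood at 68.7, 102 and 105 in IBR and 26.9 and 29.8 in IBR_CLF, 3.12-fold lower (adjusted p = 0.000903). SC5D stood at 58.5, 76.7 and 64.7 in IBR and 31.7 and 30.9 in IBR_CLF and just missed the threshold (adjusted p = 0.0518). SREBF2, the regulator, fell too. It stood at 1070, 1112 and 1340 in IBR and 297 and 296 in IBR_CLF, 3.93-fold lower (adjusted p = 0.000214). ABCG1 stood at 27.5, 30.8 and 34.9 in IBR and 21.6 and 12.9 in IBR_CLF and was not called (adjusted p = 0.395).

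The 2 largest falls, chosen after their values were seen, were in desaturases. FADS2, the first desaturase of polyunsaturated fatty acid synthesis, stood at 283, 272 and 271 in IBR and 16.5 and 19.03 in IBR_CLF, 14.7-fold lower (adjusted p = 0.000386 in limma). SCD stood at 1192, 1219 and 1818 in IBR and 130.0 and 101 in IBR_CLF, 11.96-fold lower (adjusted p = 1.54e-05). In both, the IBR_CLF libraries were also below the JEKO-1 CON library, which had 164 for FADS2 and 681 for SCD. FADS1 was 7.25-fold and FASN, the fatty acid synthase, 5.33-fold lower in IBR_CLF than in IBR. SQLE, FDPS, FDFT1 and HSD17B7 were 4.78-fold, 3.88-fold, 3.67-fold and 3.43-fold lower, and MVK, MVD, IDI1, NSDHL, ACLY and ELOVL6 were also called, at 1.93-fold (MVD) to 4.13-fold (ELOVL6) lower. The genes that were negative but not called were PMVK, LSS, TM7SF2, EBP, INSIG1, SREBF1, STARD4, ACSS2, ACACA and LPIN1 beside SC5D and ABCG1, with differences between -1.71 (LSS) and -0.23 (PMVK).

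The mitochondrial share of RNA moved with this result: it was 60.7% and 59.1% in the 2 JEKO-1 IBR_CLF libraries and 20.9%, 19.9% and 13.5% in the 3 IBR libraries. The depth of the 2 IBR_CLF libraries was also low, at 5.54 and 6.43 M reads. The first and second IBR libraries were little deeper, at 7.09 and 7.73 M, and the third had 15.6 M. The part of either in the result was not tested. Other JEKO-1 libraries with as large a share, the first and second BTZ libraries (67.6% and 67.5%) and both BTZ_CLF libraries (80.5% and 65.5%), had HMGCS1 levels of 688 and 763, and of 542 and 684. Their SCD levels were 539.6 and 583, and 527 and 614, all above the 2 IBR_CLF libraries. Their FADS2 levels were 47.1 and 68.5, and 55.3 and 89.3, below the 164 of CON and above the 2 IBR_CLF libraries. Not all genes stood so. ELOVL6 stood at 17.1 and 14.5 in these BTZ libraries and 23.3 and 11.75 in BTZ_CLF, against 15.2 and 17.5 in IBR_CLF. EBP stood at 28.3 and 26.2, and 16.7 and 32.4, below the 51.9 and 53.65 of IBR_CLF. These genes were chosen after their values were seen. With mitochondrial genes kept, as in the deposited values, 32 of the 34 genes were called lower. That scale includes the difference in mitochondrial share, and the share of all genes called lower on it is not given here. The 2 IBR_CLF libraries have names that differ only in a final letter, as do the first 2 IBR libraries. With such pairs averaged, 0 of the 34 genes were called in JEKO-1 (18 passed an unadjusted p of 0.05), and the median was -1.66.

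**Figure D3:**
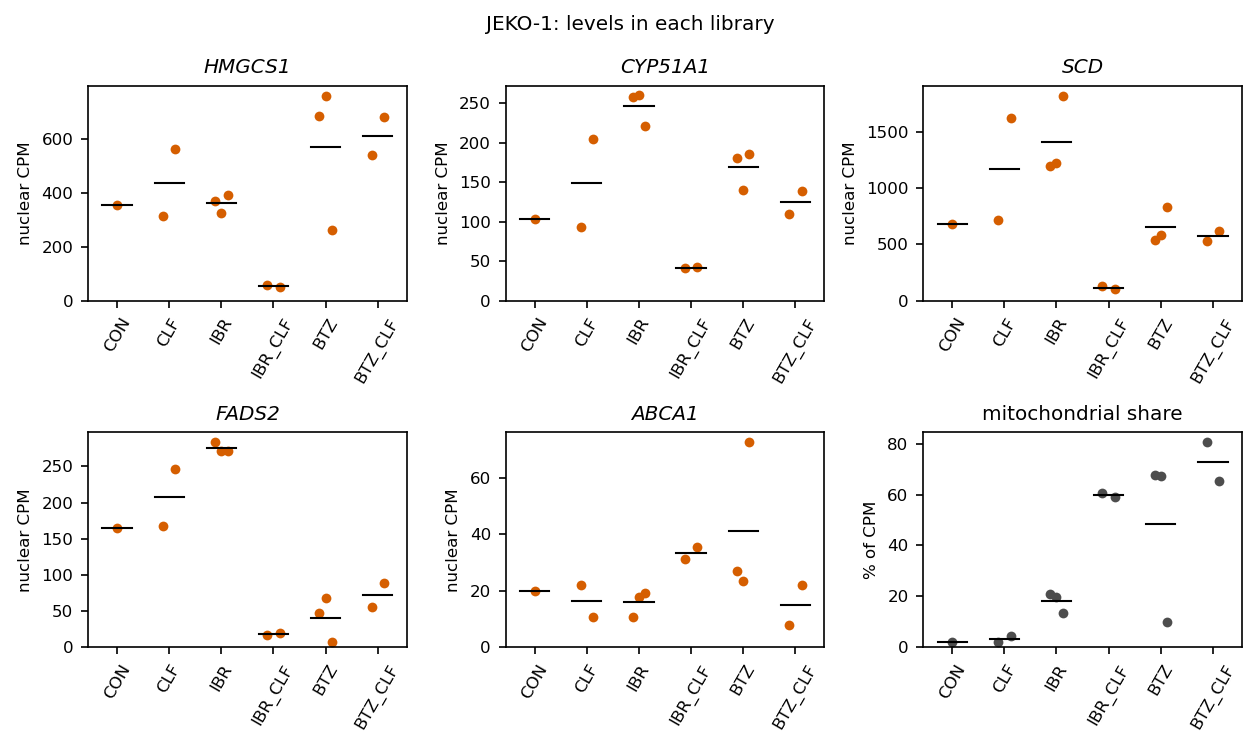
JEKO-1 levels of 5 genes in nuclear CPM and the mitochondrial share of RNA in % of CPM (y axes, from 0), by treatment (x axis). Points are libraries and bars are means. HMGCS1, CYP51A1 and SCD are lowest in IBR_CLF, FADS2 is low there and lower in 1 BTZ library, and the mitochondrial share is high in IBR_CLF, in 2 BTZ libraries and in BTZ_CLF.

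Z138 went the other way without reaching a call. There 29 of 34 genes were positive, against 67.0% of all genes tested, with a median of 0.72 against 0.15. Of the 34, 0 were called, against 0% of genes, while 15 passed an unadjusted p of 0.05, against 3.73% of genes. HMGCS1 in Z138 stood at 106 and 399.7 in IBR and 476 and 463 in IBR_CLF. DHCR7 stood at 12.9 and 29.9 in IBR and 68.0 and 50.5 in IBR_CLF. MSMO1 stood at 96.9 and 137.5 in IBR and 166 and 159.9 in IBR_CLF. In these 3 enzymes both IBR_CLF libraries lay above both IBR libraries, and the share of all genes that did so was not counted. CYP51A1 stood at 188 and 349 in IBR and 299 and 393 in IBR_CLF. ACAT2 stood at 24.1 and 46.9 in IBR and 64.3 and 45.8 in IBR_CLF. SC5D stood at 19.9 and 58.4 in IBR and 42.5 and 59.2 in IBR_CLF. In these 3 the libraries overlapped, as they did for the regulator and the exporter. SREBF2 stood at 309 and 698 in IBR and 535 and 664 in IBR_CLF, and ABCG1 at 1.25 and 3.12 in IBR and 7.63 and 1.42 in IBR_CLF. The first IBR library was the lowest of the 4 in each of these 8 genes. The 2 IBR libraries differed from each other by a root mean square of 1.08 on the log2 scale. Leaving out any of the 4 libraries leaves 1 library in a group, so counts called are not given for those fits. Without the first IBR library the median was 0.16.

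In the MINO lines no gene of the 34 was called. In MINO-P 0 were called (against 0.0254% of genes) and 8 passed an unadjusted p of 0.05 (against 9.39%), with 25 negative and a median of -0.37. In MINO-VR 0 were called (against 0.0127%) and 3 passed an unadjusted p of 0.05 (against 5.63%), with 22 negative and a median of -0.10. HMGCS1 stood at 63.9, 49.6 and 40.8 in IBR and 42.5 and 48.6 in IBR_CLF in MINO-P, and 84.4, 81.2 and 90.2 in IBR and 81.9 and 78.3 in IBR_CLF in MINO-VR. CYP51A1 stood at 169, 186 and 114 in IBR and 103 and 118 in IBR_CLF in MINO-P, and 213, 205 and 212 in IBR and 209 and 192 in IBR_CLF in MINO-VR. MSMO1 stood at 46.7, 51.6 and 27.3 in IBR and 26.4 and 29.9 in IBR_CLF in MINO-P, and 108, 130.4 and 108 in IBR and 109.8 and 105 in IBR_CLF in MINO-VR. The IBR and IBR_CLF libraries of both lines overlapped in these 3 enzymes. DHCR7 stood at 23.0, 30.5 and 23.7 in IBR and 21.7 and 19.7 in IBR_CLF in MINO-P, and 34.1, 34.5 and 50.7 in IBR and 37.5 and 35.6 in IBR_CLF in MINO-VR. ACAT2 stood at 24.4, 23.5 and 23.4 in IBR and 28.5 and 26.0 in IBR_CLF in MINO-P, and 31.1, 36.4 and 30.4 in IBR and 26.1 and 30.6 in IBR_CLF in MINO-VR. SC5D stood at 25.7, 25.9 and 34.1 in IBR and 15.02 and 13.3 in IBR_CLF in MINO-P, and 42.6, 37.6 and 55.3 in IBR and 43.7 and 30.7 in IBR_CLF in MINO-VR. In MINO-P both IBR_CLF libraries lay below all IBR libraries for DHCR7 and SC5D and above them for ACAT2, and in MINO-VR the libraries overlapped for these 3. The share of all genes without overlap was not counted in the MINO lines. SREBF2 was lower in both IBR_CLF libraries of both lines than in any of their IBR libraries. It stood at 265, 264 and 366 in IBR and 156 and 154 in IBR_CLF in MINO-P, and 294, 286 and 355 in IBR and 271 and 275 in IBR_CLF in MINO-VR. ABCG1 stood at 5.68, 6.29 and 30.0 in IBR and 3.598 and 2.95 in IBR_CLF in MINO-P, and 13.3, 13.5 and 21.5 in IBR and 7.33 and 9.48 in IBR_CLF in MINO-VR, and also did not overlap in either line. ABCA1, chosen after its values were seen, stood at 11.4, 9.63 and 34 in IBR and 2.16 and 1.14 in IBR_CLF in MINO-P, and 9.51, 8.94 and 20.8 in IBR and 4.38 and 5.62 in IBR_CLF in MINO-VR.

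The same genes were read under the other single agents, each against the same 5 CON libraries that served for CLF, in 1 fit of 17203 genes over all 56 libraries. Under BTZ 10 of the 34 genes were lower, against 13.8% of genes called lower: FDPS, TM7SF2 and EBP among the sterol enzymes, SREBF1, 5 fatty acid genes (ACLY, FASN, ELOVL6, FADS1 and FADS2) and ABCG1. FADS2 fell by 2.62 (SE 0.65) on the log2 scale, ABCG1 by 2.40 (SE 0.45) and TM7SF2, a sterol reductase, by 1.93 (SE 0.31), with adjusted p of 0.00293, 0.000129 and 1.89e-05 in limma. FADS2 stood at 104 in CON and 5.20 in BTZ in MINO-P, at 71.1 and 16.9 in MINO-VR, at 164 against 47.1, 68.5 and 6.57 in JEKO-1, and at 20.9 and 47.9 against 5.32 in Z138. Every BTZ library was below its line's CON libraries. HMGCS1 and MSMO1, by contrast, had differences of 0.77 (SE 0.49) and 0.83 (SE 0.40) and were not called. The third JEKO-1 BTZ library stood apart, with a sterol enzyme median of -2.73 against CON where the other 2 had -0.31 and -0.20, and a fatty acid median of -0.08 where they had -0.92 and -1.12. Without the JEKO-1 CON library 5 of the 34 were called.

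Under IBR 1 of the 34 genes was lower, ABCG1, with a difference of -1.80 on the log2 scale (adjusted p = 0.00557 in limma), against 6.39% of genes called lower, and 3 were called with size factors and 2 without the third MINO-P or the third JEKO-1 IBR library. Under YM155 ABCG1 was again the 1 gene called, at -2.03 (adjusted p = 0.0395), against 0.407% of genes. That call was lost with mitochondrial genes kept, with a smaller added constant, or without the CON library of MINO-P or MINO-VR, either Z138 CON library, or the YM155 library of MINO-VR, JEKO-1 or Z138. Under S63845 0 of the 34 were called in limma (0% of genes called, with 2.49% of genes and 3 of the 34 at an unadjusted p under 0.05). The sterol enzymes were positive for 12 of 18 under IBR, 15 under YM155 and 16 under S63845, with medians of 0.39, 0.55 and 0.45. Of all genes tested, 49.8%, 54.6% and 57.4% were positive, with medians of -0.0018, 0.049 and 0.051. All of these comparisons share the CON libraries with the CLF comparison. In the MINO lines, IBR, YM155 and S63845 libraries belong to another series of library names than CON, and there the series and the agent cannot be told apart within a line.

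**Figure D4:**
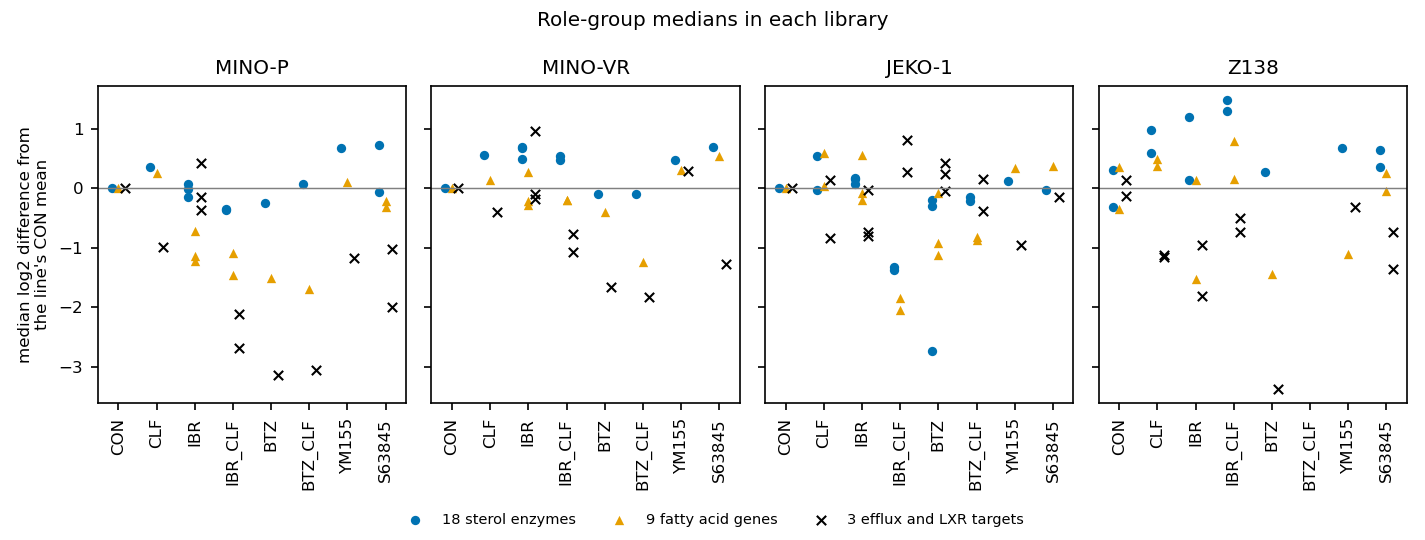
Median log2 difference from the mean of the line's CON libraries (y axis) for the 18 sterol enzymes, 9 fatty acid genes and 3 LXR targets in each library, by treatment (x axis) and line (panels). In JEKO-1 the enzyme and fatty acid medians drop in IBR_CLF, and the third BTZ library has the lowest sterol enzyme median, while its fatty acid median lies above those of the other 2 BTZ libraries. Z138 has no BTZ_CLF library.

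With CLF added to BTZ, 0 of the 34 genes were called in limma over JEKO-1 and the MINO lines (0% of 14532 genes called, and 0.874% of genes but 0 of the 34 at an unadjusted p under 0.05). The fitted difference was positive for 23 of the 34, of which 15 were sterol enzymes, with a median of 0.18 against 0.03 for all genes tested. That direction turned without the third JEKO-1 BTZ library, when 10 were positive and the median was -0.06, and with mitochondrial genes kept, when 13 were positive and the median was -0.26 against -0.30 for all genes. HMGCS1 stood at 66.7 in BTZ and 67.7 in BTZ_CLF in MINO-P, at 59.0 and 64.9 in MINO-VR, and at 688, 763 and 263 against 542 and 684 in JEKO-1.

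Among the lines compared with MINO-P, only JEKO-1 had a count of these genes far above the share over all genes. Treatment and library series were in the fit. Against MINO-P, JEKO-1 had 21 of the 34 genes called higher, against 22.8% of genes, and 2 called lower (ACLY and MYLIP). With mitochondrial genes kept 15 were called. FADS1, SQLE and HMGCS1 were 4.80-fold, 4.59-fold and 3.74-fold higher in JEKO-1 (adjusted p = 9.85e-08, 2.47e-07 and 3.57e-05 in limma). Z138 had 7 called higher, near the share of all genes (21.2%), with SREBF1 4.47-fold higher (adjusted p = 2.65e-08 in limma). PMVK and ABCG1 were called lower in Z138. MINO-VR had 3 called higher, against 4.21%, namely MSMO1 (1.89-fold), SREBF1 (2.01-fold) and ABCG1 (2.32-fold). Median HMGCS1 over all libraries of a line was 66.7 (range 33.8 to 181) in MINO-P, 81.2 (range 48.7 to 142) in MINO-VR, 395 (range 49.9 to 763) in JEKO-1 and 242 (range 72.7 to 476) in Z138, in nuclear CPM. Median SREBF1 was 13.2 (range 4.86 to 86.2) in MINO-P, 27.5 (range 14.6 to 76.3) in MINO-VR, 17.4 (range 2.07 to 28.1) in JEKO-1 and 82.0 (range 7.21 to 135) in Z138. The ranges overlapped between all lines for both genes.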

How the data were processed

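Per the labels' protocols, sequencing libraries came from poly-A RNA by Illumina TruSeq version 2 chemistry, and the submitters' processing notes name Partek and the build hg38. The aligner and counter are not given in the sources used here. The deposited values were log2 of CPM plus 1: undone, each library summed to between 999984 and 1000008.6 CPM. Of the low values, 74.6% to 88.9% came out as whole reads (within 0.05 reads), so no count model was fitted. A floor of 3 reads was 0.139 to 0.543 CPM and covers counting error only. The 1 row with no gene symbol (0.00077% of CPM or less) took no part.

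From these, CPM was rescaled without the 15 mitochondrially encoded genes, log2 was taken after adding 1, and limma 3.58.1 in R 4.3.3 was fitted with an intensity trend, to the libraries of the groups compared with cell line as a term for the CLF comparisons, or to all 56 libraries with treatment, line and library-name series. The filter was 1 nuclear CPM in 2 libraries. The script was tested on simulated data. Tables were made with pandas 2.3.3 in Python 3.11.15. Alternatives were the deposited scale, size factors, another added constant (0.25), no filter, array weights, averaging, a block, and leaving out libraries or lines. Groups are line and treatment as labelled (37 groups of 1 to 3 libraries), and replicate numbers follow the order of the series. Genes given library by library were those called in either CLF comparison or, as fewer than 8 were, the 8 with the smallest unadjusted p over both. The 34 genes, their roles and the second list were chosen with earlier results of these data known.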

Additional observations from a re-analysis of the deposited data

Results flagged for a closer look

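The effect of CLF within IBR differed between the 4 lines for 16 of the 34 genes, by the limma F-test of the difference itself, with adjusted p-values as follows. Among sterol enzymes they were 0.000969 for CYP51A1, 0.00141 for DHCR7, 0.00174 for FDFT1, 0.00277 for HMGCS1, 0.00355 for FDPS, 0.00521 for MSMO1, 0.00812 for HSD17B7, 0.0126 for ACAT2 and 0.0179 for SQLE. Among fatty acid genes they were 0.000969 for SCD, 0.00206 for FADS1, 0.00356 for FADS2 and 0.0269 for FASN. The regulators had 0.0134 for SREBF2 and 0.0256 for INSIG1, and the exporter ABCA1 had 0.0151. JEKO-1 had the lowest difference of the 4 lines in 14 of the 16, as the plot of IBR_CLF against IBR by line shows, and MINO-P had it in the other 2, INSIG1 and ABCA1. No group held 4 or more libraries, so no library was tested for standing apart within its group.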

How the results depend on the processing

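The comparison of CLF with CON had 0 of the 34 genes called under every alternative run. Its count at an unadjusted p under 0.05 was 27 with libraries of a line and treatment averaged, 5 over all 56 libraries, 8 without Z138, 11 without both MINO lines and 13 to 22 when 1 library was left out, against 19. For IBR_CLF against IBR the count called was 3 with array weights, 11 without Z138 and 0 to 2 leaving out 1 library, and the count at an unadjusted p under 0.05 was 11 with array weights, 0 with libraries of a line and treatment or name pairs averaged, 3 without MINO-P, 4 without JEKO-1, 21 without Z138 and 2 to 20 leaving out 1 library, against 7. Its median was -0.54 as deposited, -0.16 with array weights, -0.66 without Z138, -0.21 with name pairs averaged and -0.49 to -0.19 leaving out 1 library, and it reversed to 0.055 without JEKO-1, as did DHCR7 (0.31), ACAT2 (0.20) and HMGCS1 (0.26). The test between lines called 30 as deposited, 0 with name pairs averaged, 0 without JEKO-1 and 7 to 25 leaving out 1 library. JEKO-1 alone gave 32, 0 with name pairs averaged and 14 to 18. In Z138 alone the count depended on which library was left out, and each such fit left 1 library in a group. IBR against CON gave 3 with size factors and 1 to 2 leaving out 1 library, BTZ 5 to 11, and YM155 0 as deposited, 0 with an added constant of 0.25 and 0 to 1. JEKO-1 against MINO-P gave 15 as deposited. The causes were not tested. For most of these alternatives the share of all genes that passed is not given, so a larger count need not be particular to the 34. Of the single-gene values of IBR_CLF against IBR, 253 kept direction and side of the threshold, and 8 passed it under an alternative. The labels give no pairing. The suffix of library names taken as a replicate block gave 0 called in both CLF comparisons, with 23 and 6 at an unadjusted p under 0.05 and medians of 0.41 and -0.33, and deviations of libraries with the same suffix correlated at 0.01 to 0.64. Groups of 1 to 3 libraries, and depths down to 5.52 M reads in JEKO-1, limit the precision.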
